A study of Saccharomyces cerevisiae and Saccharomyces paradoxus and Saccharomyces mikatae with 10 samples.

Results

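S. mikatae strain IFO1815 was compared with the S. paradoxus strains N17 and N44, gene by gene, for the level of polyadenylated RNA. Genes were kept where the systematic name placed them on 1 of 7 chromosomes of 16 (XV, XIV, XIII, XI, IX, VIII or I), all 3 strains had a value, and IFO1815 was above 0. That left 1672 of the 4325 genes in the table. These chromosomes were chosen with earlier results of the same data known: 3 of their genes were listed at 0 in IFO1815, against 421 of 2592 genes on the other 9. Values were taken as log2(RPKM + 1), where RPKM is a read count scaled by gene length and library total, and the 3 strains were brought to common quantiles. A gene was counted as outside when IFO1815 lay above the higher, or below the lower, of N17 and N44 by more than 1 on this scale. For well-expressed genes that is a 2-fold step after the quantile step, but not in the RPKM printed here, which precede it. SOL3 passed above with 357 RPKM in IFO1815 and 213 in N17, under 2-fold. HSH49 just passed below with 31.7 RPKM in IFO1815 and 77.3 in N44, over 2-fold. Outside by this rule were 102 genes, which is 6.1% of those measured: 47 above both strains (2.81%) and 55 below both (3.29%).

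The study measured 9 strains of 3 species to ask how far transcript levels follow descent or habitat. IFO1815, from soil and decayed leaf in Japan, is labelled wild, as are N17 and N44, both from oak trees in Russia. The 6 S. cerevisiae strains are labelled clinical (YJM145), distillery (Y9), wine (BC187), fruit juice (DBVPG6040) and wild (DBVPG1788 and YPS606). All were grown at 30 °C in a sugar medium that imitates oak sap and were collected in exponential growth at an optical density of 0.5. S. mikatae is thus represented by 1 strain with 1 library and S. paradoxus by 2 strains with 1 library each, so a difference between IFO1815 and the S. paradoxus strains cannot be told apart from a difference between this culture and the others. The labels describe 1 colony and culture per strain, and the authors joined the 2 libraries of YPS606. The labels give neither ploidy nor mating type, and the depth of the 3 wild relatives is unknown.

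S. mikatae and S. paradoxus are wild relatives of baker's yeast that keep nearly the same set of genes in nearly the same order. In such species a cell tunes transport and biosynthesis to its food: permeases for poor nitrogen sources are made when good sources run low, amino acid enzymes are raised when amino acids are short, and genes for stress resistance, reserve carbohydrate and respiration are raised as glucose runs out and growth slows. Meiosis genes are kept nearly silent in cells that grow by budding.

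Over all measured genes the rank correlation of levels (Spearman's rho across genes, which share the library) was 0.880 between IFO1815 and N17, 0.898 between IFO1815 and N44 and 0.913 between N17 and N44. IFO1815 differed by more than 1 from N17 in 267 genes and from N44 in 215 genes, against 170 genes between N17 and N44. The median absolute difference was 0.446 between IFO1815 and N17 and 0.398 between IFO1815 and N44, against 0.395 between N17 and N44. The median level was 35.2 RPKM in IFO1815, against 41.2 in N17 and 41.0 in N44. Without scaling the median difference over all genes was -0.26, and after scaling it was 0.01. The number of genes outside by more than 1 on each side depends on that step: it was 18 above and 110 below with no scaling, and 37 above and 75 below with median centring. Of the 102 genes, 73 stayed outside by more than 1 with no scaling and 91 with median centring. All 102 kept their direction under both, measured against the mean of N17 and N44. As they were chosen for lying outside by more than 1, this was nearly settled by the choice.

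**Figure D1:**
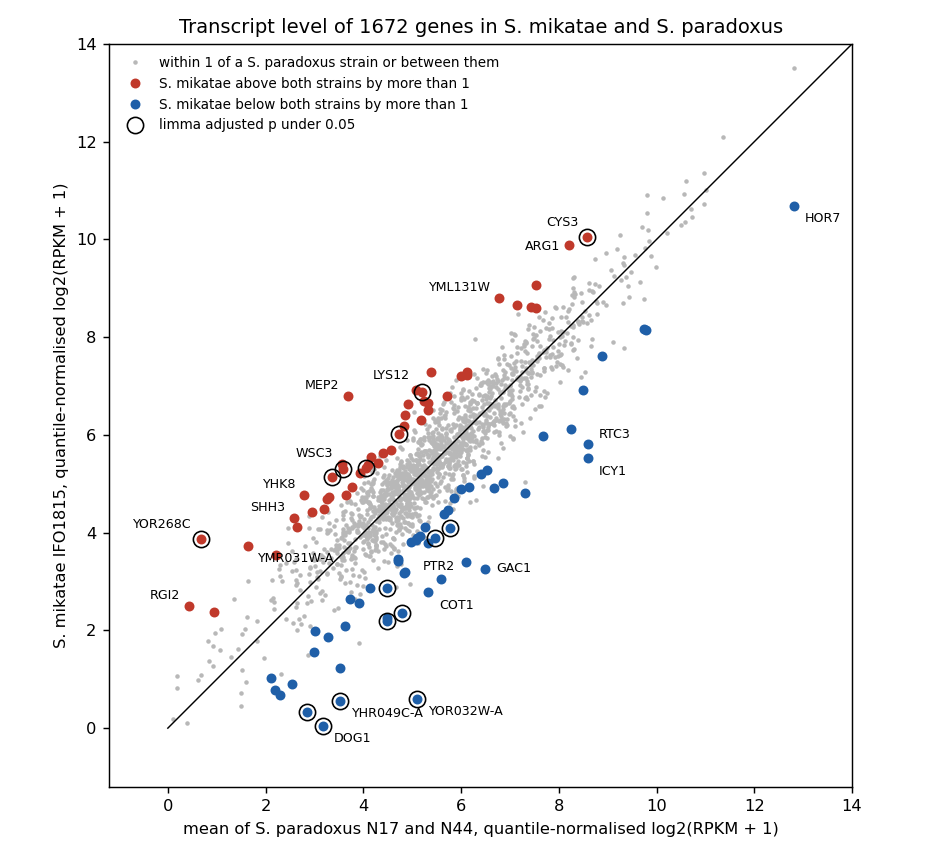
Level of each of the 1672 genes in S. mikatae IFO1815 (vertical axis) against the mean of S. paradoxus N17 and N44 (horizontal axis), both as quantile-normalised log2(RPKM + 1); red and blue points are the 47 genes above and the 55 genes below both strains by more than 1, and rings mark the 16 genes with a limma adjusted p under 0.05. The outside genes run along both sides of the diagonal over the whole range of levels, with YOR032W-A, DOG1 and YHR049C-A near 0 in IFO1815.

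The difference between species was tested with limma over all 9 strains in 3 species, with Benjamini-Hochberg adjustment over the 1672 genes. This called 16 genes (0.957%), of which 7 rose in IFO1815 (0.419%) and 9 fell (0.538%), and all 16 were among the 102. The other 86 were outside both strains but did not pass, so for them only values are given. The rule and the test use the same difference, so nothing is read from that overlap. An unadjusted p under 0.05 was reached by 306 of the 1672 genes (18.3%). The test borrows the spread among strains of S. paradoxus and S. cerevisiae for the lone S. mikatae strain. With the 3 strains alone it had 1 residual degree of freedom and called 0 genes, with 133 genes at an unadjusted p under 0.05. The number called was 10 without BC187 or without DBVPG1788, 27 without DBVPG6040 and 42 without N44. Over the 3843 genes of all chromosomes, 472 were outside both strains and 397 were called, and the cause of this gap to the 7 chromosomes was not tested. With no scaling, the rises of LYS12, SLM2, PUL3, CYS3 and MMT1 missed the threshold, with limma adjusted p of 0.0844 to 0.136, as did those of SLM2, PUL3, CYS3 and MMT1 with median centring (0.0542 to 0.0631).

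Among the genes above, the largest distance from the nearer S. paradoxus strain belonged to YOR268C, which encodes a protein of unknown function. It had 11.2 RPKM in IFO1815, against 1.15 in N17 and 0.368 in N44, and 0.389 to 0.965 in S. cerevisiae. IFO1815 was alone at this level, and the gene rose by 3.18 ± 0.43 (log2 difference ± SE) with an adjusted p of 0.00742. MEP2, the high-affinity ammonium permease, came next with 95.0 RPKM in IFO1815, against 18.4 in N17 and 9.09 in N44. The 6 S. cerevisiae strains had 6.95 to 22.7 RPKM of MEP2. Its difference was 3.11 ± 0.69 but missed the threshold, with an adjusted p of 0.0657. IMP2, a catalytic subunit of the mitochondrial inner membrane peptidase, had 34.9 RPKM in IFO1815, against 11 in N17 and 13.1 in N44, and rose by 1.73 ± 0.25 (adjusted p = 0.0129). PUL3, a putative transporter of the iron-binding pigment pulcherrimin, had 30.5 RPKM in IFO1815, against 10.1 in N17 and 10.3 in N44. PUL3 rose by 1.78 ± 0.33 (adjusted p = 0.0369), a call that was lost without N17 (adjusted p = 0.103), without BC187 (0.061), without DBVPG1788 (0.0661) and without YPS606 (0.0706). YML131W, which resembles dehydrogenases, was the most abundant in IFO1815 of the 12 genes farthest above, with 413 RPKM in IFO1815, against 134 in N17 and 105 in N44. In S. cerevisiae YML131W had 19.2 to 46.7 RPKM, below all 3 wild relatives.

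Below both strains, the largest distance belonged to YOR032W-A, a short gene of unknown function. It had 0.246 RPKM in IFO1815, against 36.9 in N17 and 33.8 in N44, and 1.87 to 6.76 in S. cerevisiae. The gene fell by 4.51 ± 0.57 on the log2 scale (adjusted p = 0.00604). YHR049C-A, which has no entry in the R64 gene table, had 0.24 RPKM in IFO1815, against 10.7 in N17 and 12.6 in N44, and gave the lowest adjusted p of all, 0.000375. In IFO1815, 10 of the 55 genes were under 1 RPKM, and the lowest values among the 55 were 5.09 RPKM in N17 and 3.14 RPKM in N44. The rule needs both S. paradoxus strains to lie well above IFO1815, so nothing is read from that contrast. Over all measured genes, 26 were under 1 RPKM in IFO1815, 6 in N17 and 14 in N44.

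**Figure D2:**
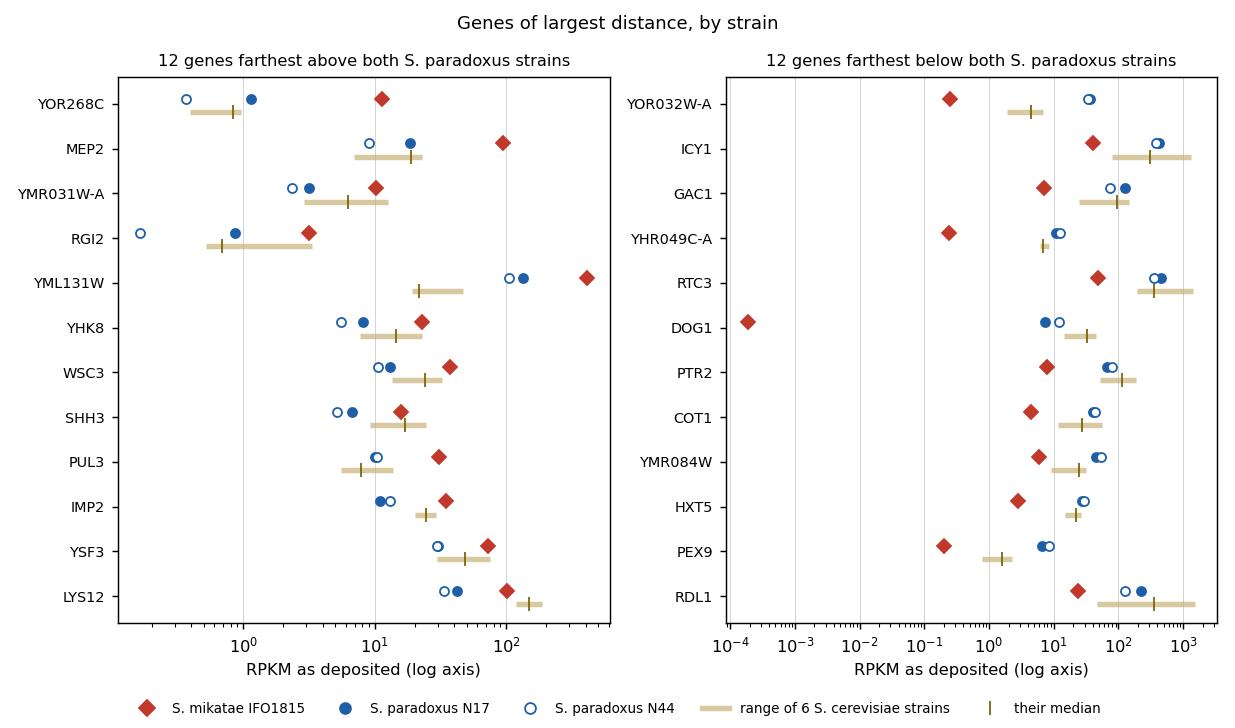
RPKM as deposited (log axis) of the 12 genes farthest above and the 12 farthest below both S. paradoxus strains, ordered by distance; red diamonds are S. mikatae IFO1815, filled and open circles are S. paradoxus N17 and N44, and the bar and tick give the range and median of the 6 S. cerevisiae strains. The 2 S. paradoxus strains lie close together for most genes, and IFO1815 has 95.0 RPKM of MEP2 and 0.246 RPKM of YOR032W-A.

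The 102 genes were sorted by function from the R64 annotation after their values were seen, so the sorting is a description. Some functions lay on 1 side. The 6 genes of amino acid and sulfur synthesis were all above, while the 5 genes of stress, slow growth and reserve carbohydrate and the 5 of meiosis and sporulation were all below. Others were split: nutrient and metal transport had 7 above and 6 below, the mitochondrion 6 and 6, and lipid metabolism with the peroxisome 4 and 4. Genes without a known function were the largest class, with 7 above and 12 below.

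**Figure D3:**
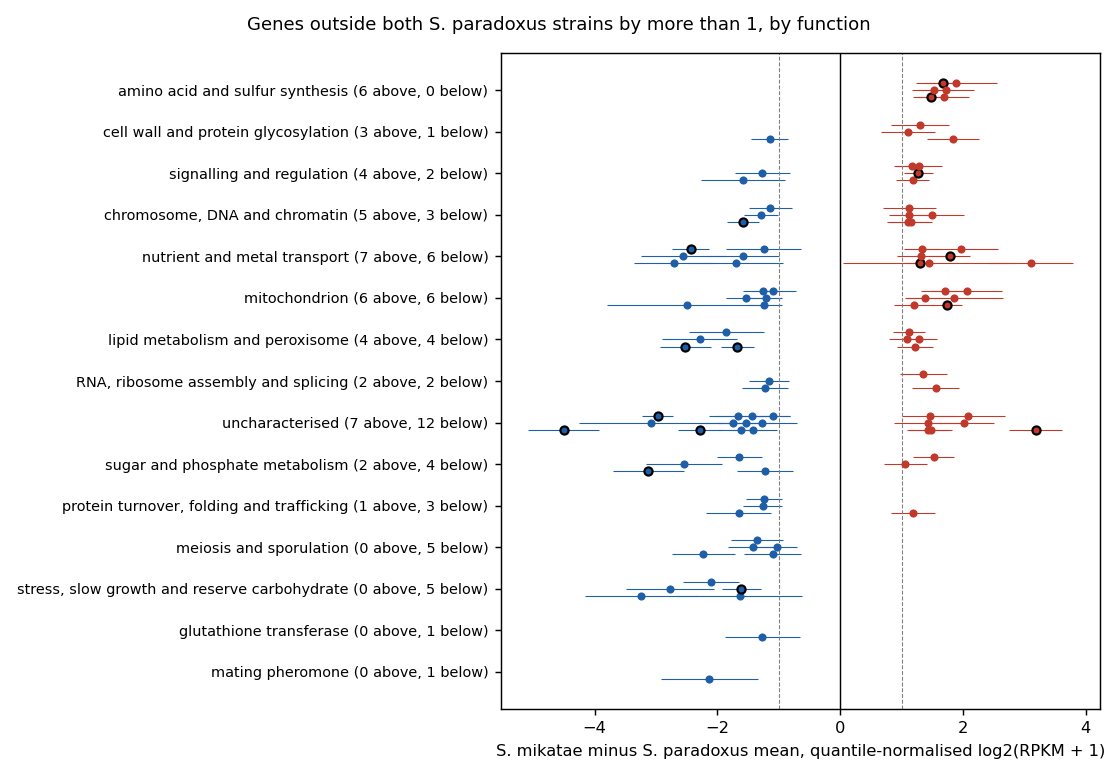
Log2 difference (S. mikatae IFO1815 minus the mean of S. paradoxus N17 and N44) of the 102 genes by function, with bars for the limma standard error; red points lie above and blue points below both strains, black edges mark the 16 called genes, and dashed lines mark differences of 1 and -1. The 6 genes of amino acid and sulfur synthesis lie right of 0, and the 5 genes each of meiosis and of stress lie left of it.

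The 6 enzyme genes of amino acid and sulfur synthesis lay above both S. paradoxus strains, and 2 of them rose by the test. LYS12, homoisocitrate dehydrogenase of lysine synthesis, had 102 RPKM in IFO1815, against 42.4 in N17 and 33.3 in N44, and rose by 1.68 ± 0.30 (adjusted p = 0.0298). S. cerevisiae had 118 to 185 RPKM of LYS12, so here the S. paradoxus strains were the lowest of the 3 species. The LYS12 call was lost without N44 (adjusted p = 0.0508) and without BC187 (0.0615). CYS3, cystathionine gamma-lyase, which makes cysteine, had 1068 RPKM in IFO1815, against 439 in N17 and 368 in N44, and rose by 1.47 ± 0.28 (adjusted p = 0.0412). IFO1815 stood above all S. cerevisiae strains too, which had 444 to 682 RPKM. The CYS3 call was lost without any 1 of BC187, DBVPG1788, Y9, YJM145 and YPS606, with adjusted p between 0.0661 and 0.0927, and with the trend on GC content and length removed (0.0941).

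The other 4 members of this group did not pass. MET14, the kinase that activates sulfate for reduction, had 85.8 RPKM in IFO1815, against 38.3 in N17 and 24.8 in N44 (difference 1.72 ± 0.46, adjusted p = 0.0965). ARG1, argininosuccinate synthetase, had 911 RPKM in IFO1815, against 259 in N17, 359.6 in N44 and 96.5 to 207 in S. cerevisiae. The level of ARG1 in IFO1815 was thus apart from that of the other 8 strains, yet its adjusted p was 0.0779. ARG7, the mitochondrial ornithine acetyltransferase of the same pathway, had 133 RPKM in IFO1815, against 24.6 in N17 and 80.1 in N44, a wide gap between the S. paradoxus strains. THR1, homoserine kinase of threonine synthesis, had 481 RPKM in IFO1815, against 155 in N17 and 255 in N44 (adjusted p = 0.0657). Over the list of amino acid biosynthesis, IFO1815 was above both S. paradoxus strains in 12 of 20 measured genes and below both in 3, with 1 gene called higher. Over all genes these shares were 36.5% above and 33.8% below. The median difference of the list was 0.51, and it was 0.19 without N17 and 0.94 without N44. For sulfate assimilation and methionine, IFO1815 was above both in 7 of 10 genes and below both in 1, with a median of 0.56 and CYS3 as the called gene. MET1 of sirohaem synthesis, needed for sulfite reduction, had 19.6 RPKM in IFO1815, against 14.3 in N17 and 9.46 in N44.

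Genes of nitrogen transport lay on both sides. Besides MEP2, PUT4, the high-affinity proline permease, had 8.74 RPKM in IFO1815, against 4.77 in N17 and 4.71 in N44. VBA1, a vacuolar permease for basic amino acids, had 86.9 RPKM in IFO1815, against 36.7 in N17 and 47.4 in N44 (adjusted p = 0.0657). Both lay above the S. cerevisiae strains as well, which had 2.19 to 5.20 RPKM of PUT4 and 39.4 to 49.8 of VBA1. PTR2, the permease for di- and tripeptides, ran the other way with 7.95 RPKM in IFO1815, against 65.9 in N17 and 80.8 in N44. S. cerevisiae had 51.9 to 185 RPKM of PTR2, so IFO1815 was the lowest of the 9 strains, with an adjusted p of 0.0657. Over the list of nitrogen scavenging and amino acid uptake, IFO1815 was above both S. paradoxus strains in 10 of 18 genes and below both in 4, with a median difference of 0.38 and 0 genes called by limma (8 at an unadjusted p under 0.05). That median was 0.24 with a pseudocount of 10, 0.76 over all chromosomes and 0.06 with no scaling, where all genes had -0.26. GAP1, the general amino acid permease, showed a wide gap between the S. paradoxus strains, with 16.3 RPKM in IFO1815, against 15.3 in N17 and 2.70 in N44. LYP1, the lysine permease of the plasma membrane, had 52.4 RPKM in IFO1815, against 78.6 in N17 and 122 in N44, the other side from VBA1.

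The transport genes HXT5, COT1, FET4, FRE3 and PHO84 lay below both S. paradoxus strains. HXT5, a hexose transporter that S. cerevisiae makes when it grows slowly, had 2.78 RPKM in IFO1815, against 27.6 in N17 and 29.8 in N44. It fell by 2.43 ± 0.30 on the log2 scale (adjusted p = 0.00604), and the S. cerevisiae strains, at 14.7 to 26.4 RPKM, also stood above IFO1815. Of 6 measured genes of sugar uptake and sensing, IFO1815 was below both S. paradoxus strains in HXT5 alone and above both in 2, with a median difference of -0.05. HXT2, another hexose transporter, had 431 RPKM in IFO1815, against 476 in N17 and 291 in N44, and after scaling it lay above both by 0.16. COT1, which moves zinc and cobalt into the vacuole, had 4.42 RPKM in IFO1815, against 40.3 in N17 and 43.0 in N44 (adjusted p = 0.103). FET4, the low-affinity iron transporter, had 53.8 RPKM in IFO1815, against 193 in N17 and 246 in N44, while S. cerevisiae had 19.7 to 95.6. For FET4 the S. paradoxus strains were the high ones. FRE3, a reductase for iron bound to siderophores, had 8.27 RPKM in IFO1815, against 24.1 in N17 and 30.6 in N44. PHO84, the high-affinity phosphate transporter, had 266 RPKM in IFO1815, against 729.7 in N17 and 989 in N44. The R64 annotation places an RNA gene on the other strand across PHO84, and the labels' protocol names no step that keeps strand, so reads of both cannot be told apart. MMT1, a putative mitochondrial iron transporter, went the other way with 55.6 RPKM in IFO1815, against 27.8 in N17 and 27.0 in N44. MMT1 rose by 1.30 ± 0.25 (adjusted p = 0.0412), a call lost without either S. paradoxus strain (0.0884 without N17, 0.0508 without N44) and without BC187, DBVPG1788, YJM145 or YPS606 (0.0661 to 0.0927), and with no trend in limma (0.0592). The iron and copper list of 13 measured genes does not hold MMT1 or PUL3, and it does hold COT1. In it, 3 genes lay below both strains by more than 1 and 0 above. In this list 0 genes were called by limma (2 at an unadjusted p under 0.05), and its median difference was 0.22. With no scaling that median was -0.14, without N17 it was -0.22 and over genes with a mean of at least 10 RPKM it was -0.18. YHK8, a presumed drug antiporter, had 22.7 RPKM in IFO1815, against 8.09 in N17 and 5.5 in N44. S. cerevisiae had 7.72 to 22.9 RPKM of YHK8, a range that holds the value of IFO1815. IZH4, a membrane protein of zinc balance, had 22.2 RPKM in IFO1815, against 10.8 in N17 and 8.30 in N44, and varied from 4.25 to 107 among S. cerevisiae strains.

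The 5 genes of stress, slow growth and reserve carbohydrate lay below both S. paradoxus strains, and 1 of them, MBR1, fell by the test. GAC1, which brings a phosphatase to glycogen synthase, had 7.12 RPKM in IFO1815, against 126 in N17 and 75.0 in N44. RTC3, a stress-induced gene of RNA metabolism, had 49.0 RPKM in IFO1815, against 458 in N17 and 357 in N44. In S. cerevisiae GAC1 ranged over 24.2 to 145 RPKM and RTC3 over 193 to 1430, so IFO1815 was the lowest of the 9 strains for both. Their adjusted p were 0.114 and 0.0922. MBR1, a gene of mitochondrial function and stress, had 4.90 RPKM in IFO1815, against 25.5 in N17 and 20.9 in N44, and fell by 1.61 ± 0.32 on the log2 scale (adjusted p = 0.0447). The MBR1 call was lost without either S. paradoxus strain (0.117 without N17, 0.0508 without N44) and without DBVPG1788, Y9, YJM145 or YPS606 (0.0596 to 0.0709), and with a pseudocount of 10 (0.0851), over all chromosomes (0.0631), over genes with a mean of at least 10 RPKM (0.052) or with no trend in limma (0.0592). HOR7, induced by high osmolarity, was among the most abundant transcripts, with 1697 RPKM in IFO1815, against 12366 in N17, 4184 in N44 and 3569 to 8409 in S. cerevisiae. YGP1, a secreted glycoprotein made on nutrient limitation, had 260.0 RPKM in IFO1815, against 1351 in N17 and 642 in N44. Of 24 measured genes on the stress and stationary-phase list, IFO1815 was below both strains in 11 and above both in 6, and 1 was called lower. The median difference of -0.65 rested on N17: it was -1.34 without N44 and 0.05 without N17. SIP18, an osmotic stress gene, shows that gap, with 10.3 RPKM in IFO1815, against 74.6 in N17 and 5.95 in N44.

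The 5 meiosis genes outside the S. paradoxus strains were all lower in IFO1815, at 3.48 RPKM or less. SPO11, the enzyme that cuts DNA to start meiotic recombination, had 2.55 RPKM in IFO1815, against 36.3 in N17 and 14.1 in N44. REC114, which acts with it, had 0.488 RPKM in IFO1815, against 5.09 in N17 and 3.16 in N44. These genes differ in where S. cerevisiae stands: it had 1.59 to 4.36 RPKM of SPO11, around the value of IFO1815, and 4.23 to 11.8 of REC114, above N44. SSP1, which shapes the spore membrane, had 1.54 RPKM in IFO1815, against 9.25 in N17 and 10.1 in N44. SPO1, needed for the spindle pole to change in meiosis, had 3.48 RPKM in IFO1815, against 19.2 in N17 and 12 in N44. SPO13, which keeps sister chromatids together in the first meiotic division, had 1.77 RPKM in IFO1815, against 8.69 in N17 and 7.29 in N44. None of the 5 passed the test, with limma adjusted p from 0.0657 for SPO11 to 0.246 for REC114. Of 25 measured genes of meiosis and sporulation, IFO1815 was below both strains in 14 and above both in 8, with a median difference of -0.42, 0 genes called by limma and 9 at an unadjusted p under 0.05. That median was 0.29 over the genes of all chromosomes, -0.16 with a pseudocount of 10 and -1.14 over genes with a mean of at least 10 RPKM. With no scaling it was -1.10, where all genes had -0.26, and with median centring -0.88, where all genes had -0.04. NDT80, the regulator that commits cells to meiosis, had 5.27 RPKM in IFO1815, against 6 in N17 and 6.77 in N44. After scaling NDT80 had a difference of 0.31 ± 0.40, of the other sign, and is thus no member of the lower group. SPS4, OSW1 and NDJ1 were likewise counted above both after scaling, though in RPKM IFO1815 was below both N17 and N44. MFA2, a gene for the pheromone a-factor, had 59.7 RPKM in IFO1815, against 616 in N17 and 159 in N44, while the S. cerevisiae strains had 1.04 to 6.36. All 3 wild relatives thus had more MFA2 than any S. cerevisiae strain. BAR1, a protease that a cells secrete against alpha-factor, was likewise above every S. cerevisiae strain in all 3, with 46.2 RPKM in IFO1815, against 76.6 in N17, 32.4 in N44 and 3.16 to 4.09 in S. cerevisiae. Over the list of mating genes IFO1815 was above both S. paradoxus strains in 5 of 16 and below both in 5.

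**Figure D4:**
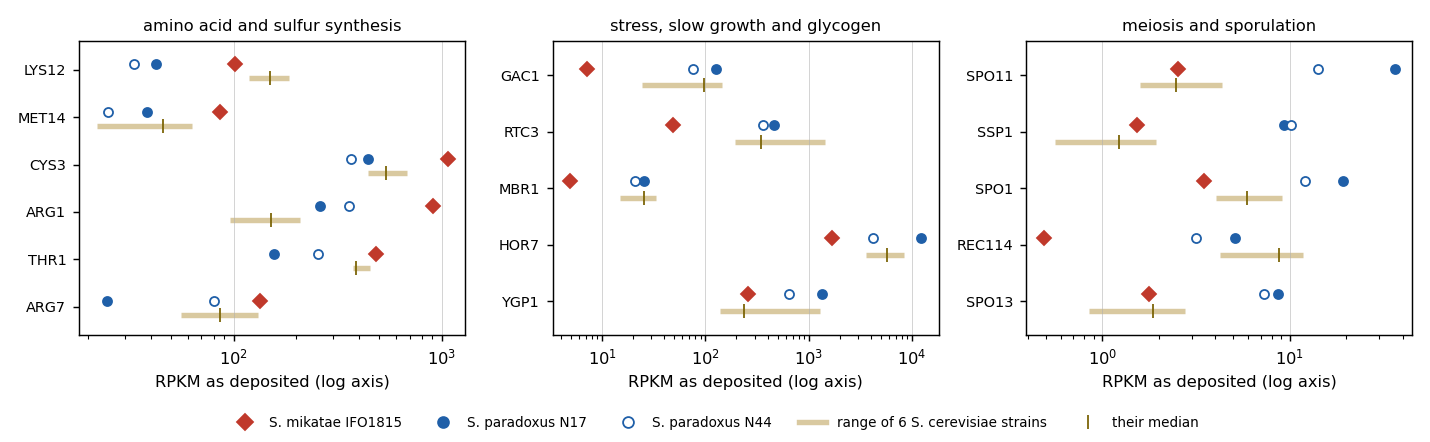
RPKM as deposited (log axis) of the members of 3 functions; red diamonds are S. mikatae IFO1815, filled and open circles are S. paradoxus N17 and N44, and the bar and tick give the range and median of the 6 S. cerevisiae strains. IFO1815 lies right of both S. paradoxus strains for the 6 genes of amino acid and sulfur synthesis and left of both for the 5 stress genes and the 5 meiosis genes, with 911 RPKM of ARG1 and 7.12 of GAC1.

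Mitochondrial genes lay on both sides. Above both S. paradoxus strains, besides IMP2, was YHM2, which carries citrate out of the mitochondrion, with 127 RPKM in IFO1815, against 64.8 in N17 and 71.4 in N44. PTH4, a rescue factor for stalled mitochondrial ribosomes, had 40.7 RPKM in IFO1815, against 23.4 in N17 and 14.3 in N44, while S. cerevisiae had 1.84 to 4. SHH3, a relative of a succinate dehydrogenase subunit, had 15.7 RPKM in IFO1815, against 6.72 in N17 and 5.13 in N44. RGI2, a gene of respiratory growth, was scarce, with 3.13 RPKM in IFO1815, against 0.86 in N17 and 0.164 in N44. MMO1 had 103 RPKM in IFO1815, against 21.5 in N17 and 58.2 in N44.

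Below both strains was RDL1, a thiosulfate sulfurtransferase, with 23.5 RPKM in IFO1815, against 224 in N17 and 126 in N44. It varied from 46.8 to 1528 RPKM among S. cerevisiae strains, and its adjusted p was 0.335. CTM1, which methylates cytochrome c, had 10.5 RPKM in IFO1815, against 51.0 in N17 and 33.4 in N44. Parts of the mitochondrial translation machinery were among these genes. MSE1, the mitochondrial glutamyl-tRNA synthetase, had 11.6 RPKM in IFO1815, against 39.4 in N17 and 31.5 in N44, and MTG1, a GTPase of mitochondrial ribosome assembly, had 11.1 RPKM, against 39.7 in N17 and 30.8 in N44. PPA2, the mitochondrial pyrophosphatase, had 34.0 RPKM in IFO1815, against 103 in N17 and 94.9 in N44. COX5B, a cytochrome c oxidase subunit used at low oxygen, had 25.4 RPKM in IFO1815, against 66.8 in N17 and 68.0 in N44.

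Triacylglycerol, the storage fat of yeast, is made mainly by the enzymes of DGA1 and LRO1, and these genes lay on opposite sides. DGA1, which uses acyl-CoA, had 13.5 RPKM in IFO1815, against 69.8 in N17 and 46.6 in N44, and fell by 1.68 ± 0.27 on the log2 scale (adjusted p = 0.0176). LRO1, which uses phospholipid, had 42.7 RPKM in IFO1815, against 20.7 in N17 and 23.3 in N44, with a difference of 1.22 ± 0.29 (adjusted p = 0.0697). S. cerevisiae had 26.2 to 28.6 RPKM of DGA1 and 16.6 to 23.8 of LRO1. Per gene length, IFO1815 had more LRO1 than DGA1, while both S. paradoxus strains had more DGA1 than LRO1.

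PEX9, a receptor that brings some enzymes into peroxisomes on oleate, had 0.2 RPKM in IFO1815, against 6.56 in N17 and 8.41 in N44. It fell by 2.52 ± 0.42 on the log2 scale (adjusted p = 0.0195), and missed the threshold with a pseudocount of 10 (0.0502) and over all chromosomes (0.0785). DCI1, a peroxisomal protein, had 0.688 RPKM in IFO1815, against 23.8 in N17 and 4.95 in N44, and CRG1, a lipid-related methyltransferase, had 27.8 RPKM, against 104 in N17 and 141 in N44. On the other side, PEX22 of the peroxisome membrane had 44.6 RPKM in IFO1815, against 25.2 in N17 and 23.7 in N44. The steryl glucosidase EGH1 and the phospholipase PLB3 were also above, with 36.8 and 95.3 RPKM in IFO1815. In N17 they had 20.8 and 55.4 RPKM, and in N44 14.5 and 54.4.

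Among genes of sugar and phosphate metabolism, DOG1, a phosphatase for deoxyglucose phosphate, had 0.000188 RPKM in IFO1815, against 7.40 in N17 and 12.3 in N44. Its value in IFO1815 was in effect 0, and it fell by 3.13 ± 0.58 on the log2 scale (adjusted p = 0.0369). In the R64 assembly DOG1 is 90.1% identical to its neighbour YHR043C, which is not analysed here, so reads shared by the 2 genes may have been split, and the value is uncertain. The DOG1 call was lost with a pseudocount of 10 (adjusted p = 0.298), over all chromosomes (0.0669), over genes with a mean of at least 1 RPKM (0.0604), and without N44 (adjusted p = 0.0657), BC187 (0.069), DBVPG1788 (0.064) or YJM145 (0.0524). YMR084W, annotated in R64 as part of a gene that is whole in related strains, had 5.86 RPKM in IFO1815, against 45.5 in N17 and 54.5 in N44. YHR210C, a putative aldose epimerase, had 6.69 RPKM in IFO1815, against 30.0 in N17 and 29.4 in N44. DDP1, a phosphatase of inositol pyrophosphates, had 26.3 RPKM in IFO1815, against 82.4 in N17 and 71.6 in N44. Above both strains stood YMR027W, a phosphatase of sugar phosphates, with 372 RPKM in IFO1815, against 142 in N17, 161 in N44 and 60.5 to 90.2 in S. cerevisiae.

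Of the genes that act on chromosomes, BUB3 of the spindle checkpoint passed the test. It had 11.5 RPKM in IFO1815, against 48.7 in N17, 43.6 in N44 and 18.8 to 37.0 in S. cerevisiae, and fell by 1.58 ± 0.25 on the log2 scale (adjusted p = 0.0176). IFO1815 was the lowest of the 9 strains. ESC8, a silencing protein, had 8.01 RPKM in IFO1815, against 28.9 in N17 and 24.8 in N44, and SPC34, which links spindle fibres to chromosomes, had 13.8 RPKM, against 37.4 in N17 and 42.2 in N44. Above both strains were NBL1 of the chromosomal passenger complex, the histone deacetylase component DEP1, the fork protection factor CSM3, the clamp loader subunit RFC3 and the ATPase MGS1. Their differences ran from 1.11 for CSM3 to 1.49 for NBL1. NBL1 had 17.4 RPKM in IFO1815, against 9.76 in N17 and 5.5 in N44.

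Signalling genes above both strains included SLM2, a target of the TORC2 kinase, with 35.3 RPKM in IFO1815, against 15.5 in N17 and 19.0 in N44. SLM2 rose by 1.27 ± 0.24 (adjusted p = 0.0369), a call lost without N17 (0.0531) and without BC187, DBVPG1788, YJM145 or YPS606 (0.0661 to 0.0833), and with no trend in limma (0.0511). RIM101, the regulator of the response to alkaline pH, had 135 RPKM in IFO1815, against 72.9 in N17, 73.6 in N44 and 70.8 to 85.4 in S. cerevisiae. The 8 other strains lay close together for RIM101, yet its adjusted p was 0.0657. CMK2, a calmodulin-dependent kinase, was lower with 103 RPKM in IFO1815, against 304 in N17 and 451 in N44. YPK2, another kinase of the TORC2 pathway, had 16.7 RPKM in IFO1815, against 51.0 in N17 and 53.6 in N44. FRT2 of the endoplasmic reticulum had 32.1 RPKM in IFO1815, against 15.1 in N17 and 16.2 in N44, and FAR8, which acts in recovery from pheromone arrest, had 77.4 RPKM, against 43.2 in N17 and 39.1 in N44.

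At the cell surface, WSC3, a sensor of cell wall stress, had 37.2 RPKM in IFO1815, against 12.9 in N17 and 10.6 in N44 (adjusted p = 0.0657). PMT3, which adds mannose to proteins, had 18.4 RPKM in IFO1815, against 8.84 in N17 and 9.53 in N44. DFG5, a putative mannosidase, had 130.2 RPKM in IFO1815, against 72.0 in N17 and 75.8 in N44. YIL102C-A, which regulates the supply of mannose for these proteins, lay below, with 10.7 RPKM in IFO1815, against 31.3 in N17 and 33.3 in N44.

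YSF3 and HSH49, both of the U2 particle that binds the branch point in splicing, lay on opposite sides. YSF3 had 72.6 RPKM in IFO1815, against 30.0 in N17 and 29.7 in N44. HSH49 had 31.7 RPKM in IFO1815, against 106 in N17 and 77.3 in N44. BUD21 of ribosome assembly had 21.7 RPKM in IFO1815, against 60.8 in N17 and 60.9 in N44, and MOD5, which modifies transfer RNA, had 61.7 RPKM, against 25.3 in N17 and 34.1 in N44. HCH1, which stimulates the chaperone Hsp90, had 368 RPKM in IFO1815, against 185 in N17 and 183 in N44, above every S. cerevisiae strain (104 to 188). Lower were the ubiquitin-conjugating enzyme UBC11, with 0.394 RPKM in IFO1815, against 7.77 in N17 and 3.75 in N44, and the glutathione transferase GTO3, with 4.85 RPKM, against 20.3 in N17 and 15.8 in N44. VPS51, which tethers vesicles at the Golgi, had 12 RPKM in IFO1815, against 37.5 in N17 and 36.3 in N44, and UFO1, an adaptor that marks proteins for breakdown, had 17.8 RPKM, against 53.2 in N17 and 56.9 in N44.

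Of the 19 genes without a known function, 4 passed the test: YOR268C rose, and YOR032W-A, YHR049C-A and DPC7 fell. DPC7 had 2.40 RPKM in IFO1815, against 29.4 in N17 and 17.7 in N44, and 2.32 to 6.32 in S. cerevisiae. It fell by 2.28 ± 0.36 on the log2 scale (adjusted p = 0.0176), and missed the threshold without N17 (0.0531). ICY1, a gene that S. cerevisiae raises on amino acid starvation, had the second largest distance below, with 40.0 RPKM in IFO1815, against 426 in N17 and 378 in N44. ICY1 ranged over 80.2 to 1321 RPKM in S. cerevisiae, and its adjusted p was 0.205. Higher in IFO1815 were also YMR031W-A, YML131W, YIR020W-A, YNL095C, YHI9 and YKR005C, with differences of 1.43 for YIR020W-A to 2.09 for YMR031W-A and no call. Lower and not called were YNR014W, YKL162C, YIL141W, YML083C, YOL024W, YOR343C, YOR385W and YKR015C, with differences of -1.09 for YKR015C to -1.75 for YNR014W. YNR014W was the lowest in IFO1815 of all 9 strains, with 25.8 RPKM, against 129 in N17, 92.3 in N44 and 124 to 356 in S. cerevisiae.

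For 8 further lists, in which limma called 0 genes, the values are given as counts and medians. After scaling, IFO1815 was above both S. paradoxus strains in 11 of 15 proteasome and ubiquitin genes and below both in 0, with a median difference of 0.53. That median was 0.90 without N17, 0.24 without N44 and 0.33 with no scaling, where all genes had -0.26. Some of the 11 were not above both in RPKM: PRE8 had 217 RPKM in IFO1815, against 222 in N17 and 128 in N44. RPT4, an ATPase of the proteasome, had 221 RPKM in IFO1815, against 182 in N17 and 111 in N44. Chaperones were above both in 10 of 15 genes (median 0.37, 0.61 without N17 and 0.23 without N44), among them STI1, an Hsp90 partner, with 325 RPKM in IFO1815, against 221 in N17 and 106 in N44. Ergosterol genes were above both in 12 of 16 (median 0.38). ERG13, which makes the sterol precursor HMG-CoA, had 852 RPKM in IFO1815, against 615 in N17 and 440.3 in N44.

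In gluconeogenesis, the glyoxylate cycle and carnitine transport, IFO1815 was below both strains in 10 of 12 genes and above both in 1, with a median difference of -0.73. That median was -0.46 without N17, -1.10 without N44, -0.42 with a pseudocount of 10 and -0.30 over all chromosomes. The malate dehydrogenase gene MDH2 had 33.2 RPKM in IFO1815, against 93.7 in N17 and 57.3 in N44. PCK1, a key enzyme of gluconeogenesis, had 10.5 RPKM in IFO1815, against 24.9 in N17 and 20.2 in N44. Mitochondrial ribosomal proteins were below both in 20 of 28 genes and above both in 1 (median -0.36, -0.10 without N17, -0.53 without N44 and -0.19 with the trend on GC content and length removed), with MRP17 at 46.0 RPKM in IFO1815, against 155 in N17 and 104 in N44. Genes of respiratory complexes and ATP synthase were below both in 12 of 24 (median -0.22), though the median was 0.11 without N17 and -0.60 without N44. ATP19, an ATP synthase subunit, had 135 RPKM in IFO1815, against 554 in N17 and 256 in N44. For ribosome biogenesis IFO1815 was below both in 28 of 62 genes and above both in 12 (median -0.23, -0.44 without N17 and 0.04 without N44). Cytosolic ribosomal proteins were above both in 6 of 15 and below both in 2 (median 0.32, -0.11 without N17 and 0.59 without N44). An unadjusted p under 0.05 was reached by 1 of 15 genes of the proteasome list, 4 of 15 chaperones, 2 of 16 ergosterol genes and 2 of 12 genes of gluconeogenesis. It was reached by 1 of 28 mitochondrial ribosomal proteins, 7 of 24 genes of respiration, 6 of 62 of ribosome biogenesis and 1 of 15 cytosolic ribosomal proteins. Over all genes 18.3% reached it, a share that only the chaperone and respiration lists exceeded among these 8. The genes named from these lists were chosen after their values were seen. No list was put to a set test, and over all genes the shares were 36.5% above both, 33.8% below both and a median of 0.01.

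**Figure D5:**
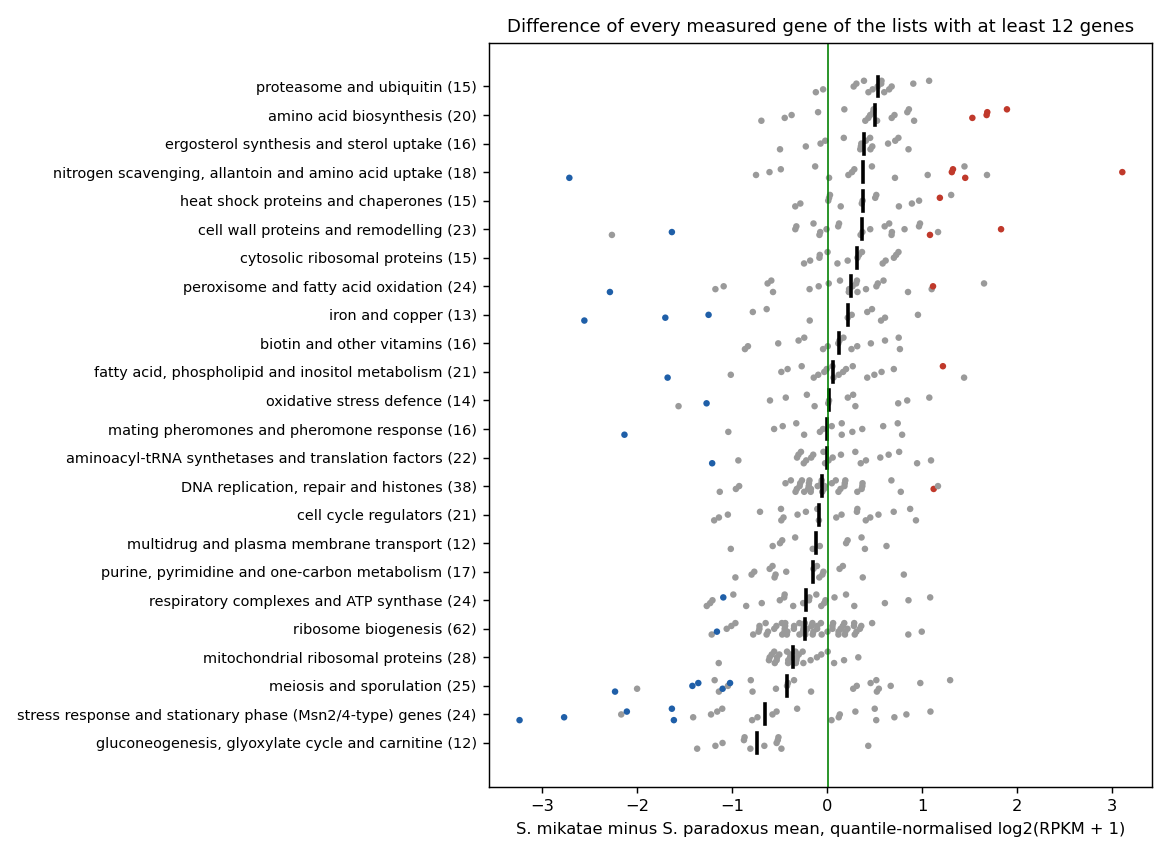
Log2 difference (S. mikatae IFO1815 minus the mean of S. paradoxus N17 and N44) of each measured gene in the 24 lists with at least 12 genes, ordered by the list median (black bar), with the number of genes in brackets; red and blue points are genes outside both strains by more than 1, and the green line is the median of all genes, 0.01. The proteasome list has the highest median drawn, 0.53 (0.24 without N44), and the list of gluconeogenesis, glyoxylate cycle and carnitine genes the lowest, -0.73 (-0.46 without N17).

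The edge of the rule divided genes of like values. Just inside were SOL3 (distance 1.006), ARG7 (1.023), HSH49 (-1.002) and YKR015C (-1.017), and just outside were YKL069W (0.997), VAC7 (0.972), ARP1 (-0.991) and PXL1 (-0.986). SOL3, an enzyme of the pentose phosphate pathway, had 357 RPKM in IFO1815, against 213 in N17 and 176 in N44.

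Some features of the 102 genes were not used by the rule. Among S. cerevisiae strains alone, the median SD of a gene was 0.320 for the genes above and 0.366 for those below, against 0.252 over all genes. The genes below included more short ones: 20.8% of those with an R64 gene model were under 500 bp, against 13.3% of the genes above and 9.92% of all. Median gene length was 1026 bp for the genes below and 1218 bp for those above, against 1254 bp for all. The R64 models are those of S. cerevisiae, and the part of gene length in the differences was not tested beyond removing a trend on GC content and length, which left 76 of the 102 among 97 genes outside. Of the chromosomes, I had 4 genes above and 0 below among 48 measured, and XV had 9 above and 18 below among 390.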

How the data were processed

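Polyadenylated RNA of 9 yeast strains (10 libraries, those of YPS606 joined) was sequenced. The authors deposited 1 table of RPKM values per gene and strain under S. cerevisiae names; the unit was inferred from the values and from Cufflinks, which the submitters' processing notes name beside cutadapt, TopHat and build R64. The genome used for S. mikatae and S. paradoxus reads is not given in the sources used here, and mapping to another species' genome can lower values of diverged genes, which was not tested. Depth is unknown, so no counting interval is given.

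Genes with values in IFO1815, N17 and N44 and above 0 in IFO1815 were kept. Values were transformed to log2(RPKM + 1), and quantiles were averaged over the 3 strains, with the other 6 put on the same quantiles, so a difference understates the change of low genes. Differences were tested with limma 3.58.1 (R 4.3.3, moderated with a trend) over 9 strains in 3 species, with 6 residual degrees of freedom, Benjamini-Hochberg adjustment over 1672 genes and a threshold of 0.05. The p-values measure the spread between strains, each mostly 1 culture. The code was tested on simulated data.

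The 102 genes and the 37 gene lists, of which 35 had at least 5 measured members, were chosen with earlier results of these data known. Genes were named by 3 parts of a rule: the 12 farthest on each side, up to 4 members of each list outside by more than 1, and the 2 genes on each side of the threshold; the others were named as members or examples after their values were seen. Names, lengths and overlaps came from the R64 annotation, which matched 1654 genes, and close copies from blastn 2.17.0 at 80% identity or more. Tables and figures were made with Python 3.11.15, numpy 2.4.6, pandas 2.3.3 and matplotlib 3.10.9.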

Additional observations from a re-analysis of the deposited data

Results flagged for a closer look

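Among 24 sets of 6 S. cerevisiae values, 2 held a strain far from the other 5 by the ratio given below. Chance gives about 1.2. The sets were those of the 12 genes farthest above and the 12 farthest below the S. paradoxus strains. RGI2 had 3.35 RPKM in Y9, against 0.519 to 1.12 RPKM in the other S. cerevisiae strains. WSC3 had 13.6 RPKM in DBVPG6040, against 19.7 to 32.3 RPKM in the others. In each set the gap to the nearest strain, divided by the whole range, was above Dixon's critical value. The ratio was 0.793 for RGI2 and 0.724 for WSC3. The RPKM printed here give neither ratio, so both were taken on another scale. In RPKM the gap of WSC3 was smaller than the range of the other 5 strains, so DBVPG6040 did not stand apart there. The S. cerevisiae values of RGI2 and WSC3 enter the spread that limma used for both genes, neither of which was called.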

How the results depend on the processing

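The 102 genes outside both S. paradoxus strains became 355 with a difference of more than 0.5, 15 with more than 2, 41 with a pseudocount of 10 and 472 over all chromosomes. The count was 212 to 266 without 1 S. paradoxus strain, where the rule needs only the other. It was within 1.5 times the reported count under the other 6 settings, but the genes were not all the same. Of the 102, 73 stayed outside with no scaling, 91 with median centring and 76 with the trend on GC content and length removed. Over all chromosomes 75 of the 102 stayed outside. The 16 genes called by limma became 397 over all chromosomes and 0 in the fit of the 3 strains alone (133 at an unadjusted p under 0.05), and 10 to 42 with 1 strain left out. The number called stayed within 1.5 times under the other 9 settings that left no strain out. With no scaling, though, 19 genes were called, 2 higher and 17 lower, and 11 of the 16 were among them. Of the 16 genes, 13 were among the calls over all chromosomes and 12 among those without N44, and the cause was not tested. Among the called genes, YOR268C, IMP2, DGA1, BUB3, HXT5, YOR032W-A and YHR049C-A stayed past the threshold in every alternative that measured them except the 3-strain fit. No difference reversed its direction among the 102 genes, an outcome made likely by choosing genes more than 1 outside both strains. No paired analysis was possible because S. mikatae has 1 strain and no label pairs strains between species. Depth is unknown, and 10 of the 55 lower genes were under 1 RPKM in IFO1815, where the pseudocount sets much of the difference.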
